A study of Mus musculus with 3 samples.

Results

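Expression of 9 genes of the interleukin-1 (IL-1) family was examined cell class by cell class in single-cell RNA-seq of mouse flexor digitorum longus (FDL) tendons. The genes are Il1a, Il1b, Il1rn, Il1r1, Il1r2, Il1rap, Il33, Il1rl1 and Il18. They were taken by symbol from the gene list of the files, where each symbol occurred once, and make up 9 of 32285 genes. The study asked how loss of Scleraxis-lineage cells, and separately natural aging, alter the cells of the tendon.

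There were 3 libraries, 1 per group. The 6 M WT library came from Scx-Cre-; DTR F/+ mice, and the 6 M DTR library from Scx-Cre+; DTR F/+ mice, in which the Scx-driven Cre allows the diphtheria toxin receptor to be expressed in Scleraxis-lineage cells. Mice of both these groups received 5 hindpaw injections of diphtheria toxin at 3 months of age and, by the study's methods, were harvested at 6 months, although the labels give 3 months. The 21 M B6 library came from C57BL/6J mice of 21 months with no toxin. Each library pooled 16 FDL tendons of male and female mice, so no value has a spread between animals. Digestion lasted 120 min for 6 M WT and 90 min for the other 2 groups. Between 6 M DTR and 6 M WT, age and toxin injections were the same, but genotype, digestion and library cannot be told apart. Between 21 M B6 and 6 M WT, genotype, age, toxin, digestion and library cannot be told apart. Between 21 M B6 and 6 M DTR the digestion time was the same, but genotype, age, toxin and library cannot be told apart. Both 6 M DTR and 21 M B6 were compared with the same 6 M WT library.

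The IL-1 family is a group of cytokines that start and tune inflammation. IL-1α and IL-1β, encoded by Il1a and Il1b, bind the receptor encoded by Il1r1, which signals together with the shared accessory protein encoded by Il1rap. The pathway has brakes: Il1rn encodes the IL-1 receptor antagonist, and Il1r2 encodes a decoy receptor that binds the ligand without signalling. Il33 encodes a nuclear cytokine of stromal and barrier cells that is released on damage, and Il1rl1 encodes its receptor ST2, which also pairs with the accessory protein. Il18 encodes a cytokine that, like IL-1β, is matured by caspase-1. In tendon, IL-1β is widely used to model inflammation because tendon cells answer it with cytokines and matrix-degrading enzymes.

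Il1a, Il1b and Il1rn, whose levels were all lower in macrophage-like cells of 21 M B6 than of 6 M WT, lie on chromosome 2. The bases just before their RefSeq transcript starts (build GRCm38.p6) are shown so that the starts of these 3 genes can be compared. Each stretch holds the last 120 bases before the start, 5′ to 3′ on the gene's strand. Capitals mark matches, on either strand, to TATAAA, to the AP-1 motif TGANTCA, to the PU.1 core GAGGAA and to the kappaB consensus. The stretches are chr2:129309973-129310092 on the minus strand for Il1a, chr2:129371140-129371259 on the minus strand for Il1b, and chr2:24336740-24336859 and chr2:24345171-24345290 on the plus strand for the first and second of 3 listed starts of Il1rn.
Il1a: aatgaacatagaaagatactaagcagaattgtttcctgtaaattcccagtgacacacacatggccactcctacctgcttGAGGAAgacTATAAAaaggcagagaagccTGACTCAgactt
Il1b: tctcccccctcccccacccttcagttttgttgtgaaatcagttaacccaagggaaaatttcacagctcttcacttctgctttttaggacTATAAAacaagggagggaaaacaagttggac
Il1rn start 1: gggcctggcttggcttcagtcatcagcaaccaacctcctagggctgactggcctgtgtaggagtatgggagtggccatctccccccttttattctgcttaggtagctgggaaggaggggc
Il1rn start 2: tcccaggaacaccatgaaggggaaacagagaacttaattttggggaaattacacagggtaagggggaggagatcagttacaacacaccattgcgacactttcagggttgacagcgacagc

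TATAAA was found in the Il1a stretch, 27 to 32 bases before the start, and in the Il1b stretch, 26 to 31 bases before it, while 6.34% of 32851 stretches of this length held it. The Il1a stretch also held an AP-1 match, present in 3.41% of stretches, and a PU.1 match, present in 11.6%. Neither Il1rn stretch held any of the 4 motifs, and the kappaB consensus, found in 1.84% of stretches, was in none of those shown. Beyond the stretch shown, an AP-1 match lay 135 to 141 bases before the first start of Il1rn. In the 250 bases before the start, 6.75% of all promoters held such a match. The matches do not overlap each other, a match of letters is not evidence that a factor binds there, and counts taken at the 3′ end do not tell which start was used. The receptor genes Il1r2, Il1r1 and Il1rl1 start at positions 40086093, 40225080 and 40429570 of chromosome 1, taking the first of 2 listed starts for Il1r1 and for Il1rl1, while Il1rap, Il33 and Il18 lie on chromosomes 16, 19 and 9.

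Below, 3 values in a row stand for the 6 M WT, the 6 M DTR and then the 21 M B6 library, unless others are named. After the study's limits on genes and mitochondrial counts, 8357, 6554 and 4798 cells remained, with median depths of 12328 to 13008 unique molecular identifiers (UMIs, each the count of 1 captured RNA molecule) per cell. Clusters were named by fixed markers: the tenocyte-like class held 5456, 2964 and 1141 cells, the epitenon-like class 1437, 1448 and 2402, and the macrophage-like class 666, 1172 and 529. Among their fixed markers, 10 of 11, 9 of 10 and 10 of 10 were raised in these classes. A level is the sum of the UMIs of a gene in the cells of a class, per 1000000 UMIs of that class (CPM). Counting was at the 3′ end without scaling by length, so levels were compared between cells and not between genes, and all intervals are exact 95% intervals that cover counting error only. Shares of positive cells were taken after thinning every cell to 2000 UMIs, which left out 9, 5 and 1 shallower cells. Between 13 and 15 barcodes of kept cells were shared by any 2 libraries. Each class was clustered again, and a sub-cluster is given by its leading genes, with a class name only where the markers met the rule. Made again with another linear algebra kernel (the routines behind the principal components), all sub-clusters but a pair kept at least 89.1% of their cells in 1 cluster; the epitenon-like cluster led by Stmn2 kept 41.6% and the vascular cluster led by Rgs4 58.0%, so no order between clusters was read from these.

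The members divided by cell class. Macrophage-like cells gave 97.1%, 98.2% and 98.4% of all Il1a UMIs, and at least 96.8% of those of Il1b and Il1rn in every library. Tenocyte-like cells gave 80.9 to 94.3% of Il33 UMIs, and epitenon-like cells 80.7 to 86.5% of Il1rl1 UMIs. Most transcripts of Il1a, Il1b and the antagonist gene were thus found in the macrophage-like class, of Il33 in the tenocyte-like cells and of its receptor gene in the epitenon-like cells, in all 3 libraries. Il18 was divided: epitenon-like cells gave 49.4%, 47.2% and 77.9% of its UMIs and macrophage-like cells 45.4%, 44.4% and 18.5%. Il1r1 was spread over stromal, vascular and T cell-like cells. These shares depend on how many cells of each class a library holds: tenocyte-like cells made up 65.3%, 45.2% and 23.8% of the kept cells.

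**Figure D1:**
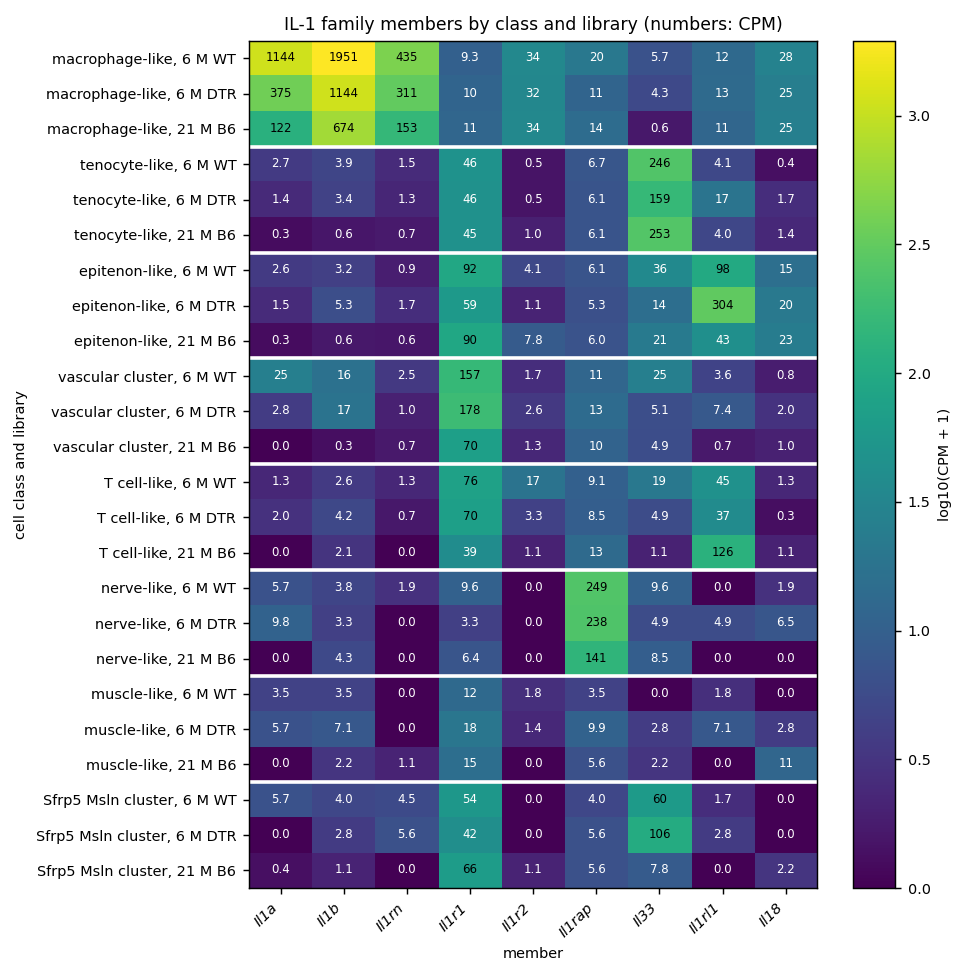
Level of each member (columns) in each cell class and library (rows), as CPM of summed UMI counts; color shows log10(CPM + 1) and each cell prints the CPM. Il1a, Il1b and Il1rn are brightest in the macrophage-like rows, Il33 in the tenocyte-like rows, Il1rl1 in the epitenon-like row of 6 M DTR and Il1rap in the nerve-like rows.

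Il1a, encoding IL-1α, was detected in macrophage-like cells at 1144 CPM (6 M WT), 375 CPM (6 M DTR) and 122 CPM (21 M B6). The share of positive cells was 41.0%, 21.5% and 11.3% in the same order of libraries, or 56.6%, 38.1% and 25.1% without thinning, and level and share were both highest in 6 M WT and lowest in 21 M B6. Relative to 6 M WT, the level was 3.05-fold lower (95% interval 2.96 to 3.14) in 6 M DTR and 9.41-fold lower (95% interval 8.81 to 10.1) in 21 M B6. Between the 2 libraries digested for the same time, it was 3.09-fold lower (95% interval 2.88 to 3.31) in 21 M B6 than in 6 M DTR. All 3 differences exceed the counting error, but no replicate exists to set against them. In tenocyte-like cells, which are not a known source, Il1a stood at 2.66, 1.45 and 0.296 CPM, with 0.568%, 0.169% and 0.175% of cells positive at median depths of 12864, 12291 and 11027 UMIs, against 15621, 13341 and 13849 in macrophage-like cells.

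Il1b, encoding IL-1β, stood at 1951 CPM (6 M WT), 1144 CPM (6 M DTR) and 674 CPM (21 M B6) in macrophage-like cells, with 35.0%, 23.9% and 11% of cells positive, or 47.0%, 33.5% and 17.6% without thinning. The level was 1.70-fold lower (95% interval 1.67 to 1.74) in 6 M DTR and 2.89-fold lower (95% interval 2.81 to 2.98) in 21 M B6 than in 6 M WT. Level and share were again highest in 6 M WT and lowest in 21 M B6. In tenocyte-like cells 0.751%, 0.641% and 0.0877% of cells were positive, and the number of Il1b UMIs per UMI of the macrophage gene C1qb was 1.27 there against 1.10 in macrophage-like cells of 6 M WT, and 0.524 against 0.529 in 6 M DTR. The intervals of these tenocyte-like ratios were 1.06 to 1.52 and 0.421 to 0.648, and both include the macrophage-like ratio. In 21 M B6, with 8 Il1b UMIs in tenocyte-like cells, the ratio was 0.116 (95% interval 0.0481 to 0.241) against 0.308. In 6 M WT the tenocyte-like ratios of Il1a, 0.874 (95% interval 0.717 to 1.06), and Il1rn, 0.495 (95% interval 0.391 to 0.625), lay above the macrophage-like ones of 0.643 and 0.244. The genes therefore did not all keep 1 ratio in both classes, and no expression was read from the low tenocyte-like levels.

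Il1rn, encoding the receptor antagonist, followed at 435 CPM (6 M WT), 311 CPM (6 M DTR) and 153 CPM (21 M B6), with 28.7%, 25.0% and 13.0% of cells positive, or 52.4%, 47.8% and 30.2% without thinning. It was 1.40-fold lower (95% interval 1.34 to 1.45) in 6 M DTR and 2.84-fold lower (95% interval 2.66 to 3.03) in 21 M B6. Over the whole class, per Il1b UMI, macrophage-like cells held 0.223, 0.272 and 0.227 Il1rn UMIs. The number of Il1a UMIs per Il1b UMI was 0.587, 0.328 and 0.180 in the same order. These class values depended on the makeup of the class. Within the sub-clusters described next, Il1rn UMIs per Il1b UMI were 0.149, 0.347 and 0.855 in the one led by Serpinb2. The proportion was 0.121, 0.196 and 0.788 in the one led by Cx3cr1 and 2.22, 6.22 and 4.84 in the one led by Gm4610. In each of these it was higher in both other libraries than in 6 M WT. The Cx3cr1 value of 21 M B6 rested on 26 Il1rn UMIs. In the dendritic cell-like one the proportion was 0.0397, 0.0241 and 0.0123. In the one led by Ccl17 and Mgl2 it was 0.301, 0.0825 and 0.6, the last from 9 Il1rn UMIs. Il1a UMIs per Il1b UMI were 0.657, 0.489 and 0.638 in the Serpinb2 cluster and 3.69, 3.32 and 4.27 in the Gm4610 cluster, where the class's order was not seen, and 0.921, 0.342 and 0.303 in the Cx3cr1 cluster.

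Over the macrophage-like class, Il1rn was detected more often in cells with Il1b than in cells without it. After thinning, 23.1%, 11.1% and 2.46% of macrophage-like cells held both Il1a and Il1b UMIs. Il1rn was detected in 45.9%, 41.4% and 36.2% of the cells with Il1b, against 19.4%, 19.9% and 10.2% of those without. The class mixes sub-clusters that differ in both genes. Within the Serpinb2 cluster the shares were 52.6%, 59.2% and 68.8% against 28.1%, 27.8% and 32.9%. Within the Gm4610 cluster they were 36.8%, 52.6% and 40% against 29.7%, 35.5% and 11.4%, with 19, 19 and 5 cells holding Il1b. In the dendritic cell-like cluster they were 21.7%, 13.2% and 20% with Il1b and 37.5%, 12% and 0% without. The reversed order of 6 M WT there rested on 31 cells, of which 23 held Il1b. In the Cx3cr1 cluster of 21 M B6, where 4 cells held Il1b, the shares were 0% and 1.66%. Macrophage-like cells with none of the 3 transcripts made up 40.2%, 54.9% and 73.3% of the class. These are descriptions over cells of 1 library each, which are not replicates.

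The macrophage-like class was mixed, and its sub-clusters carried the ligands unequally. The cluster led by Serpinb2, Il1a, F10, Clec4e and Il10, which met no marker rule for a name, held 171, 279 and 89 cells. Since Il1a is among these leading genes, and Il1rn among the first 10, the height of both there describes the cluster. Il1a stood at 2843, 894 and 391 CPM in it, Il1b at 4329, 1829 and 613 CPM and Il1rn at 643, 635 and 524 CPM. In 21 M B6 the antagonist gene thus kept 0.814 of its 6 M WT level (95% interval 0.746 to 0.888), Il1a kept 0.137 and Il1b kept 0.142 (95% interval 0.132 to 0.152). There 1 of the 89 cells held 15.0% of the 725 Il1rn UMIs, and the interval does not cover such unevenness between cells. Another cluster that met no rule was led by Gm4610, Blnk, Cbr2, Ccr1 and Ccl24 and held 184, 264 and 190 cells. Il1a stood there at 663, 191 and 119.6 CPM, Il1b at 179.8, 57.4 and 28.0 CPM and Il1rn at 399, 357 and 135 CPM. All 3 genes were again lowest in 21 M B6. The Gm4610 cells were thus low in Il1b beside the Serpinb2 cells of the same library, by 179.8 against 4329 CPM in 6 M WT.

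The cluster that met the macrophage rule was led by Cx3cr1, Gpr34, Lyl1, Slamf9 and P2ry12, several of them genes of resident macrophages, with 218, 531 and 185 cells. Il1a stood there at 427, 201 and 3.93 CPM, Il1b at 464, 587 and 13.0 CPM and Il1rn at 56.3, 115 and 10.2 CPM. All 3 were lowest in 21 M B6, where Il1a was 109-fold lower (95% interval 58.9 to 227) and Il1b 35.7-fold lower (95% interval 25.3 to 52.1) than in 6 M WT. In 6 M DTR the order differed by gene: Il1a was 2.13-fold lower (95% interval 1.97 to 2.30), whereas Il1b was 1.27-fold higher (95% interval 1.19 to 1.35) and Il1rn 2.05-fold higher (95% interval 1.74 to 2.42). The counts behind the 21 M B6 levels were 10 UMIs of Il1a and 33 of Il1b over 185 cells. In the same cluster the 5 erythroid markers summed to 39.4, 4348 and 9554 CPM, with 1, 0 and 0 of them at 0, and the 13 muscle markers to 35.9, 141 and 151 CPM, with 4, 0 and 2 at 0. RNA of these types thus differed between the libraries in the direction opposite to Il1a. Other lists were divided. Among those that shared that direction, the 9 epitenon markers summed to 44.1, 55.0 and 73.5 CPM and the 9 dendritic cell markers to 15.0, 20.2 and 35.0 CPM. Others did not share it. The 11 tenocyte markers summed to 215, 182 and 88.1 CPM, the 9 neutrophil markers to 61.6, 6.63 and 12.2 CPM and the 9 mural markers to 183, 190 and 63.3 CPM. The part of RNA of other cell types in the result was not tested.

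The dendritic cell-like cluster, led by Ccl17, Il12b, H2-Eb1, H2-Aa and H2-Ab1, held 31, 63 and 45 cells and 4148 of the 5246 Il1b UMIs of the class in 21 M B6, against 3875 of 20663 in 6 M WT. Il1b stood there at 6118, 4740.3 and 4623 CPM, Il1a at 112, 71.1 and 33.4 CPM and Il1rn at 243, 114 and 56.8 CPM. Here Il1b was 1.29-fold lower (95% interval 1.24 to 1.34) in 6 M DTR and 1.32-fold lower (95% interval 1.27 to 1.38) in 21 M B6, a ratio for 21 M B6 closer to 1 than in the Serpinb2 and Cx3cr1 clusters, with an interval that did not overlap theirs. With the other kernel the 6 M WT level was 7329 CPM and those of 6 M DTR and 21 M B6 4819.7 and 4623 CPM. Without the sub-clusters named dendritic cell-like and neutrophil-like, the log2 ratio of Il1b in 21 M B6 against 6 M WT was -3.42 instead of -1.53, and that of 6 M DTR -0.84 instead of -0.77. A small cluster led by Ccl17, Mgl2, Olr1, Acod1 and Ccrl2, whose cells also carried tendon stromal genes such as Dcn and Fmod, held 34, 34 and 18 cells, with Il1b at 806, 1044 and 49.7 CPM.

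Neutrophil-like cells, marked by S100a8, S100a9 and Retnlg, came almost wholly from 6 M WT, the 3 libraries holding 28, 1 and 2 of them. In 6 M WT they held Il1b at 10915 CPM, Il1a at 1902 CPM, Il1rn at 5848 CPM, the decoy gene Il1r2 at 714 CPM and Il1rap at 324 CPM. The other 2 libraries held too few such cells to give a level. Summed over the macrophage-like class, the 9 neutrophil markers stood at 1231, 35.0 and 201 CPM, with 0, 1 and 1 of them at 0. Without the neutrophil-like cells, Il1rn in the class had a log2 ratio of -0.14 in 6 M DTR and -1.18 in 21 M B6, against -0.48 and -1.51 with them.

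**Figure D2:**
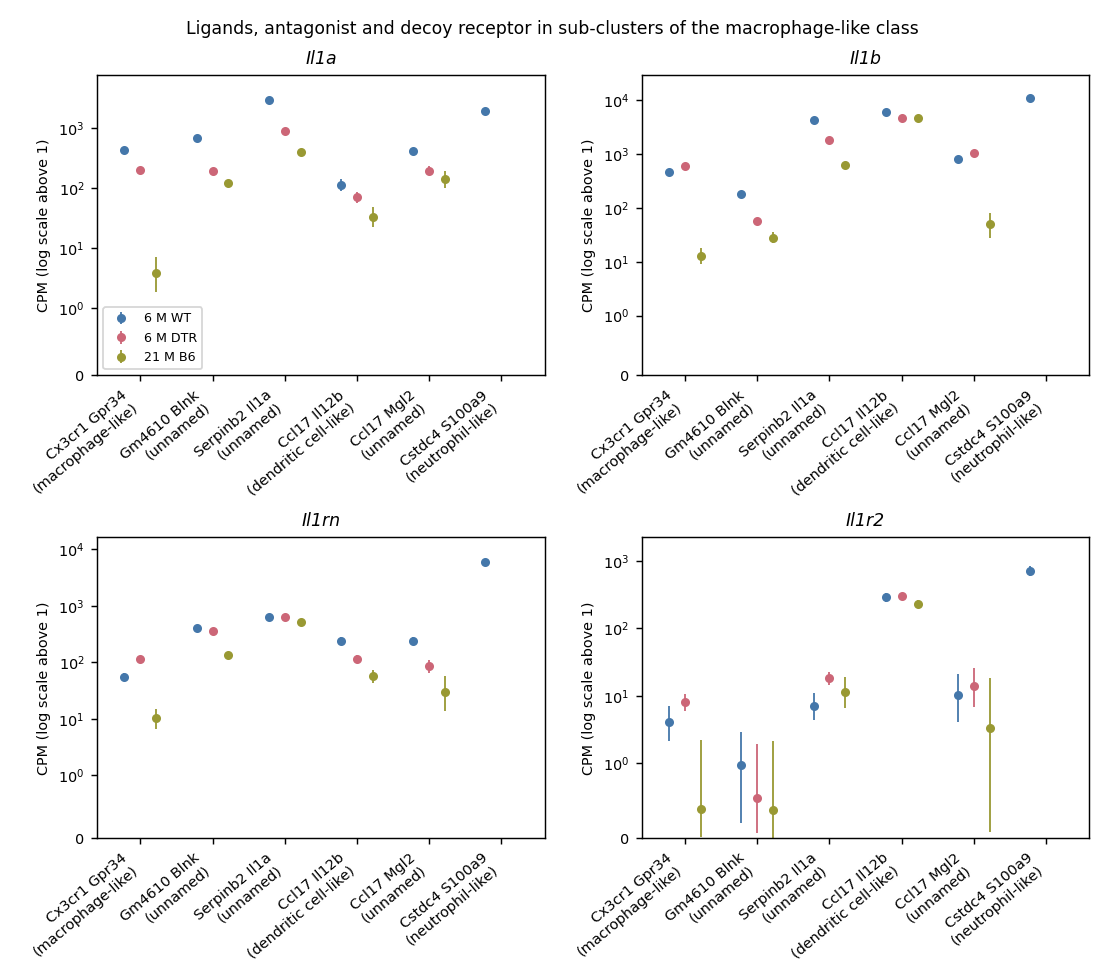
Il1a, Il1b, Il1rn and Il1r2 in the sub-clusters of the macrophage-like class; the y axis is CPM (linear below 1, log above), points are libraries with at least 10 cells and bars are 95% Poisson intervals. The neutrophil-like cluster has such a number in 6 M WT alone. For Il1b the 21 M B6 point lies far below the others in the Cx3cr1 Gpr34 cluster but near the 6 M DTR point in the dendritic cell-like cluster.

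Over the whole macrophage-like class, 9 of 9 members reached 5 CPM in 1 of the 2 libraries compared. In 6 M DTR against 6 M WT, 1 of 9 members, Il1a, was past 2-fold, and it was lower; 2.77% of all genes with this minimum were past 2-fold either way. In 21 M B6 against 6 M WT, 4 of 9 were past 2-fold, Il1a, Il1b, Il1rn and Il33, all lower, beside 7.23% of all genes. The median log2 ratio of the 9 members was -0.40 for 6 M DTR and -0.53 for 21 M B6, and that of all genes -0.01 and -0.07. Il33 was at the level of background in these cells, with 60, 72 and 5 UMIs. It met the minimum of 5 CPM only through 6 M WT, the library where its level was highest, and is among the 4 for that reason. Summed tenocyte markers in the class were 1418, 561 and 195 CPM, and no expression was read from Il33.

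The pooled animals were of both sexes, and cells were called female or male from sex-linked transcripts. Among cells called female, the log2 ratio of Il1b was -1.55 for 6 M DTR and -2.04 for 21 M B6. Among cells called male, it was 0.47 and -0.13, so the direction for 6 M DTR was not the same in both. For Il1rn in 6 M DTR it was -0.73 in female and 0.17 in male cells. Il1a was lower in both sexes, with log2 ratios of -2.03 and -1.16 in female and male cells of 6 M DTR and -3.40 and -3.14 in those of 21 M B6. The difference between the sexes was not tested. Female cells made up 60.1%, 31.6% and 56.1% of the class.

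Some stress-response genes, chosen after the members' values were seen, also differed between the libraries, but not all in 1 order. In macrophage-like cells Hspa1a, an inducible heat shock chaperone, stood at 298, 249 and 1118 CPM, and the immediate early gene Fos at 907, 1349 and 612 CPM. Jun stood at 382, 577 and 582 CPM, Dnajb1 at 72.8, 72.4 and 136 CPM and Atf3 at 1461, 1422 and 1501 CPM. Their part in the result was not tested. The share of barcodes over the mitochondrial limit was 27.6%, 43.1% and 56.5%.

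**Figure D3:**
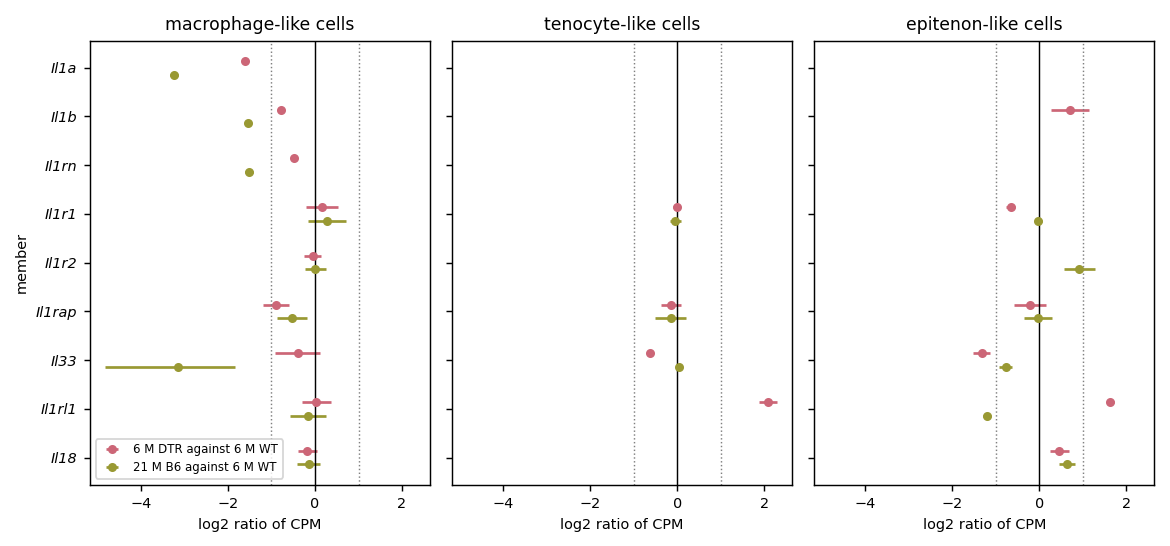
Log2 ratio of CPM against 6 M WT for each member that reached 5 CPM in 1 of the 2 libraries, in 3 classes; points are 6 M DTR or 21 M B6 and bars are exact 95% intervals from the counts. Dotted lines mark 2-fold; in macrophage-like cells Il1a is past it in both libraries, and in epitenon-like cells Il1rl1 is above it in 6 M DTR and below it in 21 M B6.

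The signalling receptor gene Il1r1 was found mainly in stromal and vascular cells. Its highest levels were in the mural-like vascular cluster led by Higd1b, Abcc9, Kcnj8, Rgs5 and Adra2a, at 427 CPM (6 M WT), 333 CPM (6 M DTR) and 329 CPM (21 M B6). Another mural-like cluster, led by Myh11, Nrarp, Avpr1a, Myl9 and Acta2, stood at 175, 189 and 101 CPM and the endothelial-like cluster at 57.8, 77.8 and 41.3 CPM. Within the epitenon-like class the cluster led by Ptx3, Fmn2, Phex, C4b and Tnfaip6, which met no marker rule for a name, was the highest, at 258, 197 and 218 CPM. In 6 M WT this cluster (95% interval 239.6 to 277 CPM) came next after the Higd1b cluster, and the Myh11 cluster (95% interval 144 to 211 CPM) and the vascular cluster led by Fabp4, Cldn5, Gpihbp1, Abcc9 and Cyp1a1 (95% interval 149 to 223 CPM) followed, with intervals that overlapped each other.

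In tenocyte-like cells Il1r1 stood at 46.2 CPM (6 M WT), 45.8 CPM (6 M DTR) and 44.7 CPM (21 M B6). The ratios to 6 M WT were 0.992 (95% interval 0.936 to 1.05) and 0.969 (95% interval 0.887 to 1.06), and 8.72%, 8.13% and 8.42% of cells were positive. Both intervals included 1; under TMM scaling, which shifts every gene of a class by 1 factor, the log2 ratio in 21 M B6 was 0.15. In epitenon-like cells it stood at 92.2, 58.7 and 90.5 CPM and was 1.57-fold lower (95% interval 1.46 to 1.69) in 6 M DTR. In the vascular cluster it stood at 157, 178 and 70.0 CPM and was 2.25-fold lower (95% interval 1.92 to 2.64) in 21 M B6, where the Higd1b mural-like cells, its richest source, numbered 18 against 81 in 6 M WT. The largest T cell-like cluster was led by Tcrg-C1, Trdc, Cd163l1, Trdv4 and Ltb, among them genes of the gamma delta T cell receptor, and in it Il1r1 stood at 97.4, 106 and 52.8 CPM. In macrophage-like cells it reached only 9.35, 10.4 and 11.3 CPM.

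Il1rap, the accessory chain shared by the IL-1 and IL-33 receptors, was low in most classes and, among the broad classes, highest in nerve-like cells. It stood there at 249 CPM (6 M WT), 238 CPM (6 M DTR) and 141 CPM (21 M B6), with 32.5%, 33.7% and 27.8% of cells positive. The level in 21 M B6 was 1.77-fold lower (95% interval 1.31 to 2.42) and that in 6 M DTR 1.05-fold lower (95% interval 0.819 to 1.33) than in 6 M WT. Il1r1 was 9.57, 3.26 and 6.39 CPM in the same cells, from 5, 2 and 3 UMIs, and Il1rl1 0, 4.89 and 0 CPM. The accessory gene was thus present in cells where both ligand-binding receptor genes had at most 5 UMIs in a library. In tenocyte-like cells Il1rap stood at 6.69, 6.05 and 6.06 CPM, in epitenon-like cells at 6.15, 5.31 and 6.02 CPM and in macrophage-like cells at 19.6, 10.6 and 13.6 CPM. The last was 1.85-fold lower (95% interval 1.51 to 2.27) in 6 M DTR; in cells called male its log2 ratio was -0.17, and without the neutrophil-like cells it was -0.45 instead of -0.89.

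**Figure D4:**
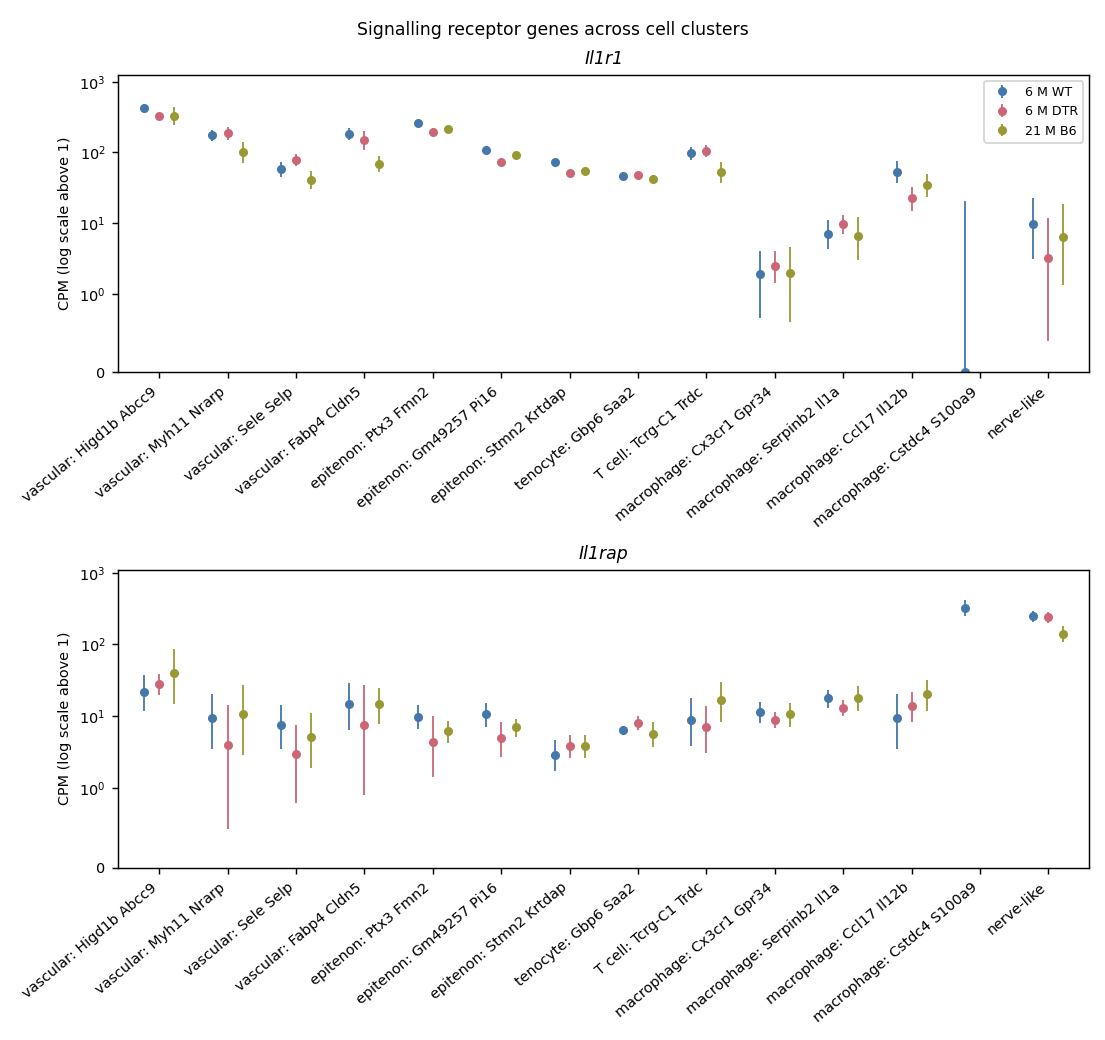
Il1r1 (upper panel) and Il1rap (lower panel) across clusters named by class and 2 leading genes; the y axis is CPM (linear below 1, log above), points are libraries with at least 10 cells and bars are 95% Poisson intervals. Il1r1 is highest in the Higd1b Abcc9 mural-like cluster and Il1rap in nerve-like cells and the neutrophil-like cells of the Cstdc4 S100a9 cluster.

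Il1r2, the decoy receptor gene, was carried in the myeloid cells mainly by the dendritic cell-like cluster, beside the neutrophil-like cells. The dendritic cell-like cluster gave 183 of 356, 388 of 544 and 205 of 263 Il1r2 UMIs of the class. It held the gene at 289 CPM (6 M WT), 299.8 CPM (6 M DTR) and 228 CPM (21 M B6). In 21 M B6, 1 of its cells held 21.0% of its Il1r2 UMIs, and 2 neutrophil-like cells held 39 of the 263 of the class. In the Serpinb2 cluster Il1r2 was 7.09, 18.4 and 11.6 CPM and in the Cx3cr1 cluster 4.06, 8.01 and 0.393 CPM. Over the macrophage-like class the level was 33.6, 32.5 and 33.8 CPM, with ratios to 6 M WT of 0.966 and 1.01, but this near equality rested on the makeup of the class: without the dendritic cell-like and neutrophil-like cells the log2 ratios were 1.11 and -0.67. In epitenon-like cells Il1r2 stood at 4.10, 1.14 and 7.75 CPM and was 1.89-fold higher (95% interval 1.49 to 2.43) in 21 M B6. The Ptx3 cluster held most of it per UMI, at 12.6, 6.11 and 18.2 CPM, and tenocyte-like cells stood at 0.480, 0.492 and 0.961 CPM. T cell-like cells stood at 16.9, 3.27 and 1.06 CPM, from 26, 10 and 1 UMIs.

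Il33 was the ligand gene of the tendon cells themselves. In tenocyte-like cells it stood at 246 CPM (6 M WT), 159 CPM (6 M DTR) and 253 CPM (21 M B6), and 26.7%, 16.7% and 23.6% of cells were positive. Macrophage-like cells, which should lack it, were positive in 1.05%, 0.683% and 0.189% of cells, at median depths within 13341 to 15621 UMIs. The level was 1.54-fold lower (95% interval 1.5 to 1.59) in 6 M DTR, while in 21 M B6 the ratio to 6 M WT was 1.03 (95% interval 0.991 to 1.07). Over 14 alternatives this 21 M B6 ratio ran from 0.978 in cells called male to 1.41 at a resolution of 0.3. In 7 of them it lay outside its interval. The 6 M DTR ratio was below 1 throughout but ran from 0.541 in cells called male to 0.777 in cells called female. It too lay outside its interval in 7 of the 14 alternatives. Female cells made up 61.7%, 33.0% and 37.0% of the class. A cell with Il33 held 5.73, 5.51 and 6.51 of its UMIs on average before thinning. The lower level in 6 M DTR was thus seen in the share of positive cells, which was 57.4%, 37.7% and 46.0% without thinning. The erythroid markers summed to 1164, 4769.6 and 904 CPM in these cells, highest in 6 M DTR, and the muscle markers to 101, 443 and 439.7 CPM, with 1 muscle marker at 0 in 21 M B6 and no other marker of these lists at 0. Without the sub-clusters named erythroid-like and muscle-like, the log2 ratio of Il33 was -0.64 in 6 M DTR, against -0.62 with them. The larger one named erythroid-like held 202, 75 and 6 cells. It was led by Lcn2, Mmp3, Slpi, Chil1 and Hba-a1, so its name rests on hemoglobin genes beside stromal ones. The part of erythroid RNA in the difference was not tested.

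Sub-clusters of the tenocyte-like class differed in Il33; those led by Gbp6 and Cyp26a1 met the tenocyte rule and those led by Npy and Mstn met none. The cluster led by Npy, Gm41724, Ppp1r1b, Slurp1 and Serpinb7 stood at 334, 290.0 and 356 CPM, the one led by Gbp6, Saa2, Adig, Ucma and Saa1 at 214, 198 and 326 CPM, and the one led by Cyp26a1, Fign, Cacnb4, Pla2g12b and 9330159F19Rik at 146, 66.3 and 155 CPM. Of these 4, the widest gap between libraries was in the cluster led by Mstn, Chodl, Crispld1, Cthrc1 and Fbln7, a cluster with the myostatin gene in the lead. Il33 stood there at 268, 24.2 and 107 CPM, which was 11.1-fold lower (95% interval 9.47 to 13.0) in 6 M DTR and 2.49-fold lower (95% interval 2.20 to 2.82) in 21 M B6. This cluster held 294, 659 and 247 cells, and in it 18.7%, 1.67% and 8.91% of cells were positive. The 6 M DTR library thus held the most of these cells and the least Il33 in them.

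In epitenon-like cells Il33 was lower, at 35.6 CPM (6 M WT), 14.2 CPM (6 M DTR) and 20.9 CPM (21 M B6). It was 2.51-fold lower (95% interval 2.19 to 2.87) in 6 M DTR and 1.70-fold lower (95% interval 1.54 to 1.89) in 21 M B6. Both differences depended on how the class was drawn: with cells taken by marker gates in place of clusters, the log2 ratios were -0.39 and -0.11 instead of -1.32 and -0.77, and with a mitochondrial limit of 5% they were -1.86 and -1.40. In the 7 sub-clusters of the class other than the one that carried hemoglobin genes and met the erythroid rule, the Il33 level of 6 M DTR was below that of 6 M WT, at levels from 1.08 to 32.3 CPM. In the cluster led by Gm49257, Pi16, Il1rl1, Stmn4 and Tnfaip6 the 2 levels, 13.5 and 12.1 CPM, differed by less than the counting error, as did those of the cluster led by Clic5, Col22a1, Hhip, Bglap2 and Rab37, 5.46 and 2.53 CPM. In 21 M B6 the cluster led by Nppc, Ccl8, Aldh1a2, Dpep1 and Ccl11 went the other way beyond its counting error, at 29.9 CPM (95% interval 26.1 to 34.2) against 8.38 CPM (95% interval 5.65 to 12) in 6 M WT. The cluster led by Sfrp5, Msln, Krt19, Cldn1 and Itgb4, which no marker list named, held Il33 at 60.5, 106 and 7.79 CPM. This rests on 107, 38 and 21 UMIs, of which 1 cell held 37.4%, 63.2% and 42.9%, and no order was read from it.

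Il1rl1, encoding the IL-33 receptor, had the largest ratio to 6 M WT of the members compared in tenocyte-like and in epitenon-like cells of 6 M DTR. In epitenon-like cells it stood at 98.0 CPM (6 M WT), 304 CPM (6 M DTR) and 42.9 CPM (21 M B6), from 2153, 6654 and 1560 UMIs. The level in 6 M DTR was 3.11-fold higher (95% interval 2.96 to 3.26) and that in 21 M B6 2.29-fold lower (95% interval 2.14 to 2.44) than in 6 M WT, so the 2 libraries lay on opposite sides of it. The ratio for 6 M DTR was 2.13 in cells called female and 3.90 in cells called male, and the difference between the sexes was not tested. Female cells made up 58.5%, 36.7% and 46.9% of the class. Between the 2 libraries digested for 90 min, Il1rl1 was 7.10-fold lower (95% interval 6.72 to 7.51) in 21 M B6. The share of positive cells was 5.44%, 12.5% and 3.41%, or 9.60%, 22.0% and 6.12% without thinning, and before thinning a positive cell held 15.6, 20.9 and 10.6 UMIs on average. Both measures had the same order of libraries, and the transcript was concentrated: single cells held up to 135, 298 and 71 UMIs, which made up 6.27%, 4.48% and 4.55% of the class total. The erythroid markers summed to 1616, 3842 and 842 CPM in these cells, with none of them at 0. Without the erythroid-like sub-cluster the log2 ratios of Il1rl1 were 1.65 in 6 M DTR and -1.19 in 21 M B6, against 1.64 and -1.19 with it.

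Within the class Il1rl1 was highest in 3 clusters. Those led by Ptx3, Fmn2, Phex, C4b and Tnfaip6 and by Nppc, Ccl8, Aldh1a2, Dpep1 and Ccl11 met no marker rule for a name, and held Il1rl1 at 198, 1200.2 and 81.1 CPM and at 233, 726 and 61.4 CPM. The cluster led by Gm49257, Pi16, Il1rl1, Stmn4 and Tnfaip6 met the epitenon rule and stood at 194, 828 and 62.3 CPM. Since Il1rl1 is among its leading genes, the height there describes the cluster, and with the other kernel, where these cells were joined by more of the class, the level was 149, 443 and 46.5 CPM. In these 3 clusters 6 M DTR was highest and 21 M B6 lowest. In the Ptx3 cluster the level was 6.05-fold higher (95% interval 5.49 to 6.68) in 6 M DTR, and 6.70%, 28.2% and 3.54% of cells were positive. The cluster led by Uchl1, Cyp21a1, Wnt2, Arnt2 and Colec10 was low and had another order, at 3.83, 29.8 and 10.3 CPM. The gene has a membrane-bound and a soluble product, which gene-level counts do not separate.

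In tenocyte-like cells Il1rl1 was low, at 4.10 CPM (6 M WT), 17.4 CPM (6 M DTR) and 3.99 CPM (21 M B6). Its UMIs per UMI of the epitenon gene Pi16 were 2.67, 6.66 and 0.348 there, against 0.731, 3.07 and 0.14 in epitenon-like cells, so the 2 genes did not keep 1 ratio in both classes. The 6 M DTR level was 4.25-fold higher (95% interval 3.70 to 4.88), with 0.440%, 1.21% and 0.439% of cells positive. The size of this difference was unsteady: the ratio was 2.11 without the upper limit on genes and 12.9 in cells called male. Its UMIs were uneven, with 16.3% of them in 1 cell of 6 M DTR. In the muscle-like sub-cluster of these cells in 6 M DTR, 100% of the UMIs behind 349 CPM came from 1 cell, and no level was read from them. The Mstn cluster stood at 1.5, 29.4 and 12.5 CPM and the Gbp6 cluster at 4.63, 29.2 and 1.52 CPM. In 6 M WT the Npy and Mstn clusters, highest in Il33, had Il1rl1 at 1.55 and 1.5 CPM, and the Nppc and Ptx3 clusters, high in Il1rl1 among stromal cells, had Il33 at 8.38 and 26.6 CPM.

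Among lymphoid cells, Il1rl1 marked a small cluster led by Il5, Gata3, Calca, Il13 and Tnfrsf18, genes of type 2 lymphocytes, which met no marker rule for a name. It held 14, 20 and 14 cells and Il1rl1 at 218, 223 and 522 CPM. Beside the rest of the T cell-like class its cells also carried tendon stromal genes such as Dcn and Coch. Their median depths were 18959.5, 18037 and 9943.5 UMIs, so the CPM of the libraries rest on unlike totals per cell. The part of stromal RNA in these levels was not tested. Over the T cell-like class the level was 44.8, 37.2 and 126 CPM and was 2.81-fold higher (95% interval 2.07 to 3.84) in 21 M B6, where the Il5 Gata3 cells were 14 of 92 cells of the class against 14 of 143 in 6 M WT. In the largest T cell-like cluster the 21 M B6 level of 42.2 CPM rested on 28 UMIs, 67.9% of them in 1 cell. In macrophage-like cells Il1rl1 stood at 12.4, 12.6 and 11.1 CPM. No cluster met the mast cell rule, although mast cells are a known site of ST2, and the 8 mast cell markers summed to 70.8, 18.2 and 41.4 CPM in macrophage-like cells.

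**Figure D5:**
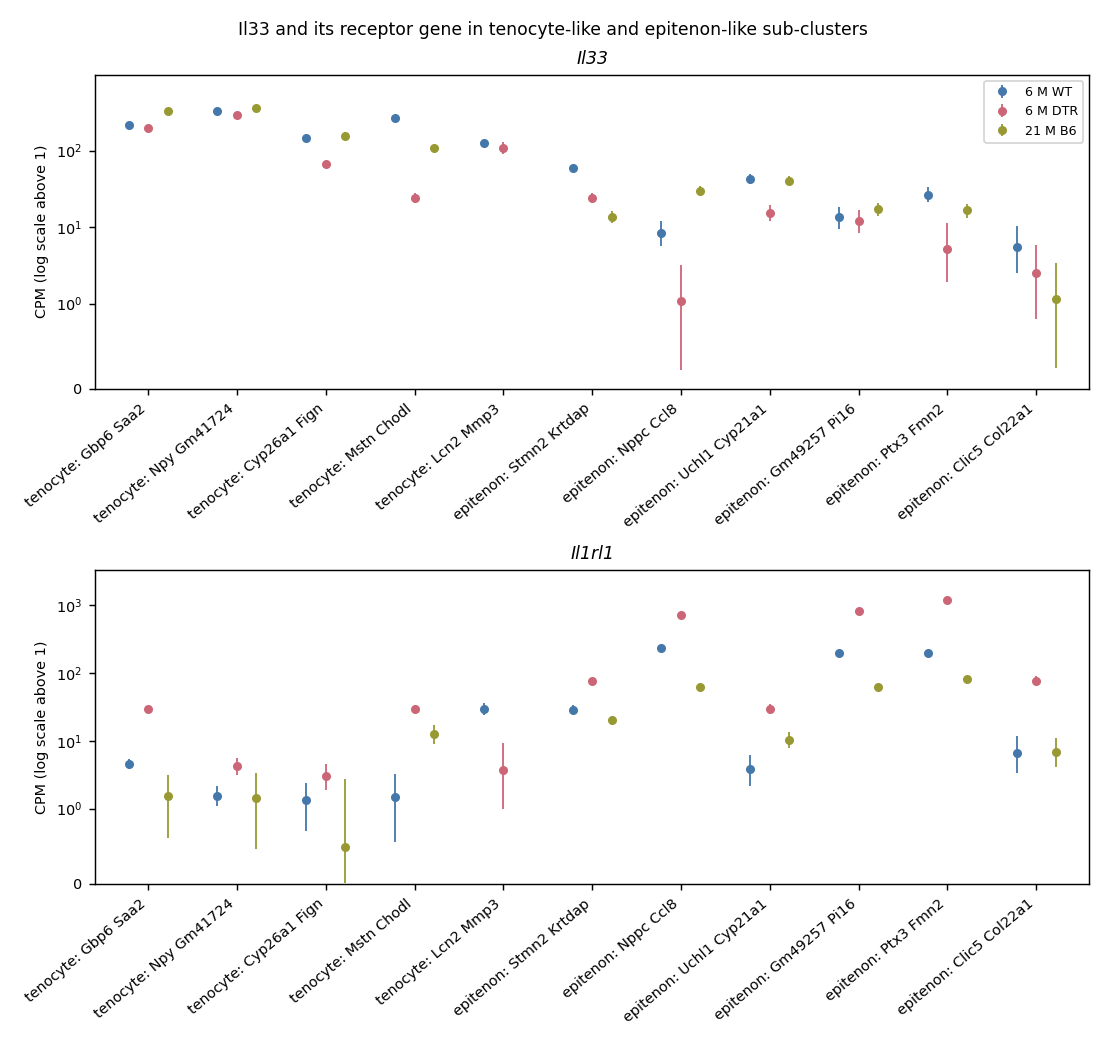
Il33 (upper panel) and Il1rl1 (lower panel) in sub-clusters of tenocyte-like and epitenon-like cells, named by class and 2 leading genes; the y axis is CPM (linear below 1, log above), points are libraries with at least 10 cells and bars are 95% Poisson intervals. The 6 M DTR point lies lowest for Il33 in the Mstn Chodl cluster and highest for Il1rl1 in the Ptx3 Fmn2, Nppc Ccl8 and Gm49257 Pi16 clusters.

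In stromal cells fewer members could be compared. In tenocyte-like cells 4 members reached 5 CPM for 6 M DTR against 6 M WT, and 1 of them, Il1rl1, was past 2-fold and higher, beside 4.70% of all genes. Il1rl1 met that minimum only through 6 M DTR, the library where it was high. For 21 M B6, 0 of 3 were past 2-fold, beside 6.95% of all genes. In epitenon-like cells 2 of 6 were past 2-fold in 6 M DTR, Il1rl1 higher and Il33 lower, beside 2.19% of all genes. Under marker gates Il33, at a log2 ratio of -0.39, was no longer past 2-fold, whereas Il1b, at 2.20, was. In 21 M B6, 1 of 6, Il1rl1, was past 2-fold and lower, beside 4.33%; under TMM scaling, which moved the median of all genes in this comparison from -0.28 to 0.04 on the log2 scale, its log2 ratio was -0.89 and no longer past 2-fold. The same scaling moved the median of all genes in tenocyte-like cells of 21 M B6 from -0.24 to -0.04. Hspa1a stood at 107, 114 and 787 CPM in epitenon-like cells, and its part in the result was not tested. With so few members a share cannot be set against that of all genes with any precision.

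Il18 was found in myeloid and epitenon-like cells. In macrophage-like cells it stood at 28.1 CPM (6 M WT), 24.9 CPM (6 M DTR) and 25.4 CPM (21 M B6). The ratios to 6 M WT were 0.884 (95% interval 0.760 to 1.03) and 0.905 (95% interval 0.752 to 1.09), and both intervals included 1. Of its sub-clusters, the dendritic cell-like one was highest in each library, at 109, 48.7 and 59.1 CPM. In 6 M WT 1 of its 31 cells held 30.4% of its 69 Il18 UMIs. Epitenon-like cells stood at 14.8, 20.3 and 22.9 CPM, where Il18 was 1.38-fold higher (95% interval 1.19 to 1.59) in 6 M DTR and 1.55-fold higher (95% interval 1.36 to 1.77) in 21 M B6. In cells called male the log2 ratio in 6 M DTR was 1.05 instead of 0.46. The Uchl1 cluster stood at 29.5, 34.2 and 49.8 CPM and the Gm49257 Pi16 cluster at 38.6, 31.0 and 34.1 CPM, both above the level of the whole class in every library. Tenocyte-like cells stood at 0.384, 1.66 and 1.40 CPM.

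Outside the macrophage-like class, apparent levels of Il1a could rest on single cells. In endothelial-like cells of 6 M WT it stood at 72.9 CPM, from 87 UMIs, but 1 cell held 93.1% of them. In 6 M DTR 8 UMIs were found there and in 21 M B6 none, so no difference between libraries was read. Il1b stood at 41.1, 34.8 and 0.860 CPM in these cells, and over the vascular cluster its UMIs per C1qb UMI were 1.16 in 6 M WT (95% interval 0.781 to 1.73), an interval that included the macrophage-like ratio.

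Other genes of the pathway were counted from 4 lists. Chosen with earlier results of these data known, they are descriptions. Of the 20 genes that IL-1 is known to induce in stromal or myeloid cells, 18 could be compared in macrophage-like cells between 21 M B6 and 6 M WT; 13 were past 2-fold and lower and 2 higher, with a median log2 ratio of -1.67 beside -0.07 over all genes, of which 7.23% were past 2-fold. Csf2, encoding the growth factor GM-CSF, had 1 UMI in 21 M B6 and 1211 in 6 M WT, where it stood at 114 CPM, which gives a ratio of 0.00112 (95% interval 2.84e-05 to 0.00628). Ptgs2, encoding cyclooxygenase-2, stood at 185 against 821 CPM. Has1, a hyaluronan synthase, was higher, at 97.9 against 15.1 CPM. In the same order of libraries it stood at 2752 against 876 CPM in epitenon-like cells and at 838 against 280 CPM in tenocyte-like cells. The part of stromal RNA in its macrophage-like level was not tested. In 6 M DTR against 6 M WT, 7 of 17 were lower past 2-fold and 0 higher, beside 2.77% of all genes and with a median of -0.64 beside -0.01, and with Ptgs2 at 212 CPM.

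In tenocyte-like cells of the aged library the same list was divided: 5 genes were higher past 2-fold and 4 lower of 18, with a median log2 ratio of -0.29 beside -0.24 over all genes, 6.95% of which were past 2-fold. Il6, an inflammatory cytokine gene, stood at 391 against 106 CPM in 6 M WT, while Lcn2, an acute-phase gene, stood at 49.0 against 277 CPM. In 6 M DTR, 4 of 17 were lower, Saa3 and Lcn2 among them, and 2 higher, with the adhesion gene Vcam1 at 78.6 against 31.9 CPM. The list's median there was -0.63 beside 0.04 over all genes, of which 4.70% were past 2-fold. In epitenon-like cells 8 of 18 were lower and none higher in 6 M DTR, with Lcn2 at 3.16 against 86.1 CPM. The median of the list was -0.73 beside -0.00 over all genes, 2.19% of them past 2-fold. In 21 M B6 5 were lower, Mmp3 among them, and 2 higher, Has1 among them, with a median of -0.20 beside -0.28 and 4.33% of all genes past 2-fold. Hspa1a in tenocyte-like cells stood at 68.9, 79.3 and 1024 CPM, and its part in these differences was not tested.

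In the other lists few genes were past 2-fold. Of the 12 genes for processing and inflammasomes, 8 and 9 could be compared in the macrophage-like class for 6 M DTR and for 21 M B6, and none was past 2-fold in either direction. In tenocyte-like cells 1 of 5 was higher in 6 M DTR and none of 4 past 2-fold in 21 M B6, and in epitenon-like cells none of 4 was in either library. Of the 20 signalling genes downstream of the receptor, 19 could be compared in macrophage-like cells of each library. None was past 2-fold in 6 M DTR, and Nfkbiz, a nuclear inhibitor of kappaB protein, was lower in 21 M B6, at 487 against 979 CPM. In tenocyte-like and epitenon-like cells 1 signalling gene was past 2-fold and lower in each of the 4 comparisons; in tenocyte-like cells of 6 M DTR it was Tnip1, an inhibitor of the same pathway, at 27.3 against 59.2 CPM. Among 11 other ligands and receptors of the family in the files, at most 3 reached 5 CPM in any of these comparisons; in macrophage-like cells 1 was higher and 1 lower past 2-fold in each library, and in the other classes none was.

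The genes most like each member in pattern were sought over 64 sub-clusters and libraries of at least 50 cells, among 10805 genes. The measure was Pearson's r of log2(CPM + 1), and since points of 1 library share its depth and free RNA, the values are descriptions. Since the points are sub-clusters, the ranks depend on how these were drawn. Il1a was most like the chemokine gene Ccl3 (r = 0.94), followed by Ccl4, another chemokine gene, and Clec4e. Il1b was most like Tnip3 (r = 0.93), followed by Clec4n and Clec4e. Il1rn was most like Mybpc3, Tfec and Cd300c2 (r = 0.94, 0.93 and 0.93). Il33 was most like Loxl4, Wif1 and Pla2g5 (r = 0.91, 0.89 and 0.88).

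For the receptors the nearest genes were less close. Il1r2 was most like the dendritic cell gene Flt3 (r = 0.69), then Ffar4 and Icosl, and Il1r1 most like Il15ra (r = 0.80), then Airn and Ddit4. Il1rap was most like Bcas1, Plxnb3 and Sorcs1 (r = 0.86 for the first). Il1rl1, like Il1r2, had no close match, with r = 0.69 for Ptgs2os2, then Dbx2 and Gramd3. Il18 was most like Emilin2 (r = 0.83), then Dtnbp1 and Ftl1. Antisense genes overlap 3 members, and the strand rule of the counting is not given in the sources used here; their UMIs were few, at most 45 for Gm14023 beside 12480 of Il1a in 6 M WT.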

How the data were processed

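Tendon cells of 3 libraries were profiled by 10x 3′ single-cell RNA-seq. The authors deposited whole-number UMI counts per gene and barcode, made with Cell Ranger, version 6.0.1 in the file header and 2.1.1 in the submitters' processing notes; neither the genome build nor the strand rule of counting is given in the sources used here. Total depth was 92707026 to 148149903 UMIs over 12273 to 16099 barcodes per library. The members and lists were chosen with earlier results of these data known.

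The cells kept had 1000 to 5000 genes and no more than 10% mitochondrial UMIs. The count kept for 6 M WT was slightly under the number the study states, and the other libraries matched it. Libraries were integrated in Seurat 5.3.0 (20 dimensions, 2000 features without the members and list genes) and clustered at a resolution of 0.1, with classes clustered again at 0.3. Sub-clusters depend on the linear algebra kernel, which was set to OpenBLAS Haswell, with Sandybridge as an alternative. Cluster names needed at least 3 raised markers; a difference from the study's cell types may come from these rebuilt names. Scrublet in scanpy 1.11.5 called 1, 6 and 1 doublets in the 6 M WT, the 6 M DTR and the 21 M B6 library, so the caller did not work here and doublets were not removed.

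Counts were summed per class and library, scaled to CPM and compared as ratios with exact conditional 95% intervals; levels have Poisson and shares Clopper-Pearson intervals (scipy 1.17.1), which cover counting error only. Since a group is 1 library, nothing was tested and no p-value is given. A gene needed 5 CPM in 1 of the 2 libraries and was called past 2-fold; limits for 0 counts used 3 counts. List genes are named when past 2-fold with at least 50 CPM, at most 4 per list and comparison by ratio; clusters by 5 leading genes; and like genes by the 3 highest correlations. Only the ratios, their intervals and the 2-fold calls were tried on simulated Poisson counts with known changes. Those counts hold no spread between libraries or animals, so they cannot tell how the calls hold against it. Clustering, naming and thinning were not tried in this way. Alternatives were other limits on mitochondrial counts and genes, doublet scores, resolution, integration, features, marker gates, TMM scaling (edgeR 4.0.16), low-count filters, thinning and sex of the cells.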

Additional observations from a re-analysis of the deposited data

Results flagged for a closer look

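Il1rl1 differed in direction between classes of 21 M B6. Against 6 M WT its log2 ratio was 1.49 in T cell-like cells and -1.19 in epitenon-like cells. The difference between these ratios was not tested, since each group is 1 library.

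Barcodes that the limits on genes and mitochondrial counts left out also held members where at least 3 neutrophil markers were detected. Among 40 such barcodes of 6 M WT with under 1000 genes, Il1b stood at 7657 CPM, Il1rn at 4717 CPM and Il1a at 1266 CPM. The decoy gene Il1r2 stood at 755 CPM and Il1rap at 325 CPM in the same barcodes. Among 42 barcodes of 6 M WT over 10% mitochondrial counts, Il1b stood at 1605 CPM, Il1rn at 257 CPM and Il1r2 at 128 CPM. These levels lie above the limit that a count of 0 allows, and no comparison of the report uses them.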

How the results depend on the processing

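No paired analysis was possible because each group is 1 library, and for the same reason no library could be left out. Over the planned and added alternatives, 401 log2 ratios of single members moved by no more than their counting interval and 135 moved by more. No member that was past 2-fold in the main analysis changed direction. The count of members past 2-fold in macrophage-like cells of 21 M B6 stayed within 1.5 times its value of 4, and so did that in epitenon-like cells of 6 M DTR, 2, under every alternative run, although under marker gates the 2 were Il1rl1 and Il1b, not Il1rl1 and Il33. In macrophage-like cells of 21 M B6 the 4 became 3 without Il1b with a mitochondrial limit of 5% or in male cells, and without Il33 under marker gates, with a filter of 20 CPM, in female cells or without the highest Scrublet scores. In macrophage-like cells of 6 M DTR the count of 1 was 2 with a mitochondrial limit of 5%, a resolution of 0.3, female cells alone, male cells alone, or without the sub-clusters named for another class. In tenocyte-like cells of 6 M DTR the count of 1 was 4 under marker gates, 2 with no filter on low genes and 0 with a filter of 20 CPM, which Il1rl1 does not reach. In tenocyte-like cells of 21 M B6 the count of 0 was 1 without the upper limit on genes, with Il1rl1 lower, and 1 in male cells alone, with Il1rl1 higher, 3 under marker gates and 5 with no filter. In epitenon-like cells of 21 M B6 the count of 1 was 3 with a mitochondrial limit of 5%, with no filter or in male cells alone, and 2 with a mitochondrial limit of 20%, at a resolution of 0.3, under marker gates or without the 5% of cells with the highest Scrublet scores. Except for the filters, which change the genes compared, the cause was not tested. Another linear algebra kernel left all 6 counts as they were. It and the leaving out of sub-clusters and high Scrublet scores were chosen after seeing the data, and on a further kernel, whose values are not given here, the macrophage-like class split into fewer sub-clusters and the dendritic cell-like one held more cells. Depth limits the members with few UMIs, such as Il33 in macrophage-like cells of 21 M B6, with 5. Il33 is counted among the 4 there, although it met the minimum of 5 CPM only through 6 M WT.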
